A study of Rattus norvegicus with 26 samples.

Results

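Endothelial and vascular receptor genes were followed through the differentiation of rat multipotent adult progenitor cells (rMAPCs) towards smooth muscle cells (SMCs). The 10 genes are the receptors Kdr, Flt1, Flt4, Tek, Tie1, Eng and Nrp1, the junction genes Pecam1 and Cdh5, and the nitric oxide synthase Nos3. Each was found by its gene name on the array, which carries 35287 different names (accessions that stand in for a name included), and was measured by its brightest probe. All 10 had a probe, and each of these probes gave a signal well above background throughout 1 or more of the groups.

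The cells were Oct4-expressing rMAPC lines derived from bone marrow of female Fischer rats, and each line is 1 clone. Cl19 came from an animal of 3 weeks and 3c3 from an embryo of day 18. To differentiate them, both lines were given TGFβ1 together with PDGF-BB in a basal medium free of serum, and they were sampled on d0, d2, d4 and d6, with 3 arrays per line and day. A further 2 arrays held RNA of primary SMCs, which the labels call rat aortic RNA and for which the strain, sex and age are not given in the sources used here. The authors call the 3 replicates of each time point biological, and the labels do not say whether they are separate cultures. For the 2 primary SMC arrays neither source says this, and their spread may be technical. The p-values measure the spread between these samples.

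Endothelial cells line blood vessels and respond to vascular endothelial growth factors through Kdr, Flt1 and Flt4, with Nrp1 as co-receptor. Kdr carries most of the growth signal of VEGF-A, Flt1 binds VEGF-A and placental growth factor, and Flt4 binds VEGF-C and VEGF-D in lymphatic vessels. Tek (also called Tie2) is the receptor of the angiopoietins, and Tie1 is its partner. Cdh5 (VE-cadherin) and Pecam1 hold neighbouring endothelial cells together, Eng is a co-receptor for ligands of the TGFβ family, and Nos3 makes the nitric oxide that relaxes the surrounding smooth muscle. In adult vessels smooth muscle and endothelium are separate cell types that lie next to each other.

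The probes on which the main results rest are printed as the array's annotation gives them, each 60 bases long, 5′ to 3′, with no part set in capitals because the whole probe hybridizes. Where the annotated span is wider than 60 bases, the probe crosses an exon junction. All positions are on assembly rn4, and the Eng probe was not placed on it.
Flt1, chr12:7924711-7941808, + strand: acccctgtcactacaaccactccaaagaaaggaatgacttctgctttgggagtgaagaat
Flt4, chr10:35108228-35111552, + strand: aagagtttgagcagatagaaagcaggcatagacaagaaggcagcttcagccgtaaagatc
Tek, chr5:115178576-115178635, + strand: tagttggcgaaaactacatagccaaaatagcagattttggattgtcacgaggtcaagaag
Tie1, chr5:138950263-138950322, - strand: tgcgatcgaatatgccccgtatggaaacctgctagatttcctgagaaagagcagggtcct
Pecam1, chr10:96057717-96057776, - strand: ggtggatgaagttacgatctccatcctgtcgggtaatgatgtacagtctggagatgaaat
Nos3, chr4:6159286-6159345, - strand: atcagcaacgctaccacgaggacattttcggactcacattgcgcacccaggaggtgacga
Eng: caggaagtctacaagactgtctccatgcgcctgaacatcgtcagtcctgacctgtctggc

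Levels are given as log2 of the intensity after quantile normalization, in which a difference of 1 is a doubling. Levels of different probes were not compared with each other. Changes were tested with limma across 24442 probes with Benjamini-Hochberg adjustment, and a change was called where the adjusted p was under 0.05. Between 43.2% and 61.4% of the gene features of an array were well above background, and no gene feature was saturated. The array labelled Cl19 d2 replicate 1 lay closer to the 3c3 d2 arrays (root mean square difference 0.382 to 0.538 on the log2 scale) than to the other Cl19 d2 arrays (0.876 and 0.917), and Cl19 changes to d2 are therefore given with and without it. On the slide of 3c3 replicate 3 the lowest signal well above background was at 2.79 to 4.20, against 2.01 to 2.47 on the other 3c3 arrays. Each line was scanned on a day of its own and the primary SMC arrays on another, so differences in level between lines, or between a line and primary SMC RNA, cannot be told apart from the scan day. The 4 days of a replicate shared a slide, at fixed positions.

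Before differentiation both lines had the same partial set of these genes. Flt1, Tek, Tie1, Pecam1, Cdh5 and Eng were well above background on all 3 d0 arrays of Cl19 and of 3c3, and Flt4, Nos3 and Nrp1 on none of them. Kdr was well above background on 1 of 3 Cl19 arrays and on none of 3c3. Of the 10 genes, 1 differed between the lines on d0, against 3.07% of all probes. This was Flt1, which was 3.63-fold higher in Cl19 (difference 1.86 ± 0.27 SE on the log2 scale, adjusted p = 4e-04, limma).

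From d0 to d6 the lines took different courses. In Cl19, Nos3 and Flt4 rose while Tek, Tie1 and Pecam1 fell, and in 3c3, Flt1, Tie1 and Eng rose while Pecam1 fell. Nos3 was also called higher in 3c3, but only as fitted, with no fold above 1 that the signal allows. In Cl19, 2 of the 10 genes were called higher, against 22.0% of all probes, and 3 were called lower, against 30.3%. In 3c3, 4 were called higher, against 19.7% of all probes, and 1 was called lower, against 28.6%. The median change of the 10 genes was -0.34 in Cl19 and 0.25 in 3c3, and that of all probes was -0.20 and -0.21. Over the 4 days together, the F-test called 5 genes in Cl19 (54.3% of all probes) and 7 in 3c3 (50%), of which 4 were called in both lines. The share of all probes called in both lines was not counted. Among these 4 genes, the 3c3 call of Tek was lost in 21 of 26 fits that left out 1 array. Nos3 was mostly not well above background in 3c3. In RNA of whole cultures, fewer cells of a type and less RNA per cell cannot be told apart.

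**Figure D1:**
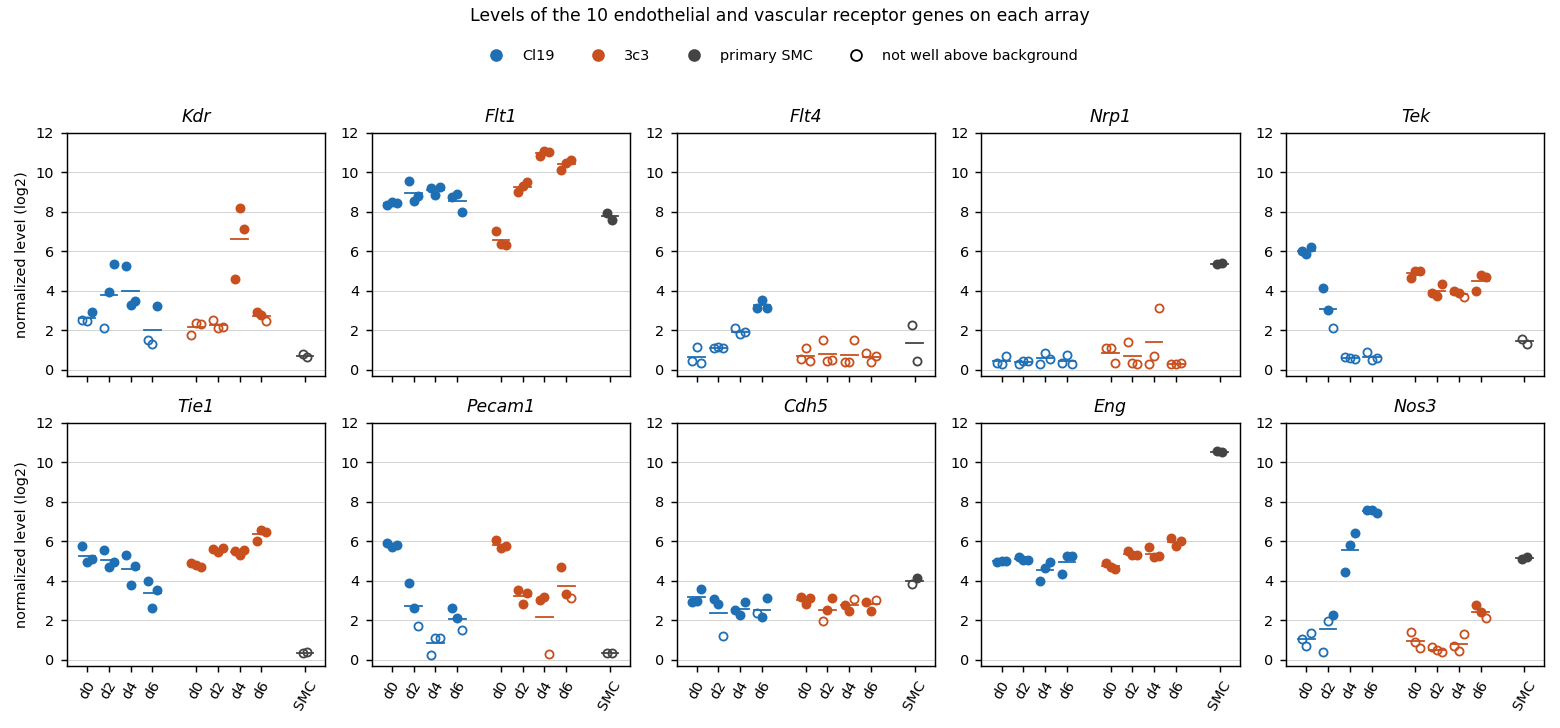
Normalized level (log2, y axis) of the brightest probe of each of the 10 genes on every array, by line and day, with primary SMC RNA at the right. Filled points were well above background, open points were not, and lines are group means; Nos3 reached 7.43 to 7.61 on d6 of Cl19, while Tek and Pecam1 started between 5.69 and 6.19 there and fell.

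Flt1, the receptor for VEGF-A and placental growth factor, rose in 3c3 and stayed up to d6. In this line its level was 7.03, 6.37 and 6.33 on d0, 8.98, 9.29 and 9.51 on d2, 10.85, 11.09 and 11.01 on d4, and 10.13, 10.48 and 10.62 on d6. Every array of d2, d4 and d6 was above every d0 array. The rise was 14.3-fold by d6 (3.83 ± 0.27, adjusted p = 1.5e-09) and 21.2-fold by d4 (adjusted p = 6e-10).

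In Cl19 the same probe was slightly raised on d2 and d4 and not on d6. Its level was 8.35, 8.50 and 8.46 on d0, 9.57, 8.55 and 8.80 on d2, 9.23, 8.86 and 9.27 on d4, and 8.77, 8.92 and 7.97 on d6. Every d2 and d4 array was above every d0 array, and d0 and d6 overlapped. The d4 change was called (0.68 ± 0.27, 1.60-fold, adjusted p = 0.041) but was lost in 5 of 26 fits that left out 1 array, each time a d0 or d4 array of Cl19 (adjusted p up to 0.12). The d2 change (0.54, adjusted p = 0.17, or 0.24 without replicate 1), the d6 change (0.12 ± 0.27, adjusted p = 0.75) and the F-test over time (adjusted p = 0.091) did not pass. The difference between the lines in the d6 change was itself past the threshold (-3.72 ± 0.38, Cl19 minus 3c3, adjusted p = 1.3e-06). The lines thus ended in the opposite order from d0, with 3c3 higher on d6.

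A second Flt1 probe, which the annotation puts 93.8 kb further along the + strand, changed the same way with smaller size. In 3c3 it rose by 1.52 ± 0.28 to d6, 2.86-fold (adjusted p = 0.00017), and within the slides of replicates 1, 2 and 3 its change was 0.98, 1.65 and 1.93, against 3.10, 4.11 and 4.29 for the brighter probe. On every slide the brighter probe changed more by d6. In Cl19 its d6 change was -0.19 ± 0.28 (adjusted p = 0.60), and its d6 change differed between the lines as well (-1.70 ± 0.39, adjusted p = 0.0042). On d0 this probe showed no offset between the lines (0.00 ± 0.28), unlike the brighter probe. The change of Flt1 in 3c3 was therefore seen at both positions, and its size and the d0 difference depended on the probe.

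**Figure D2:**
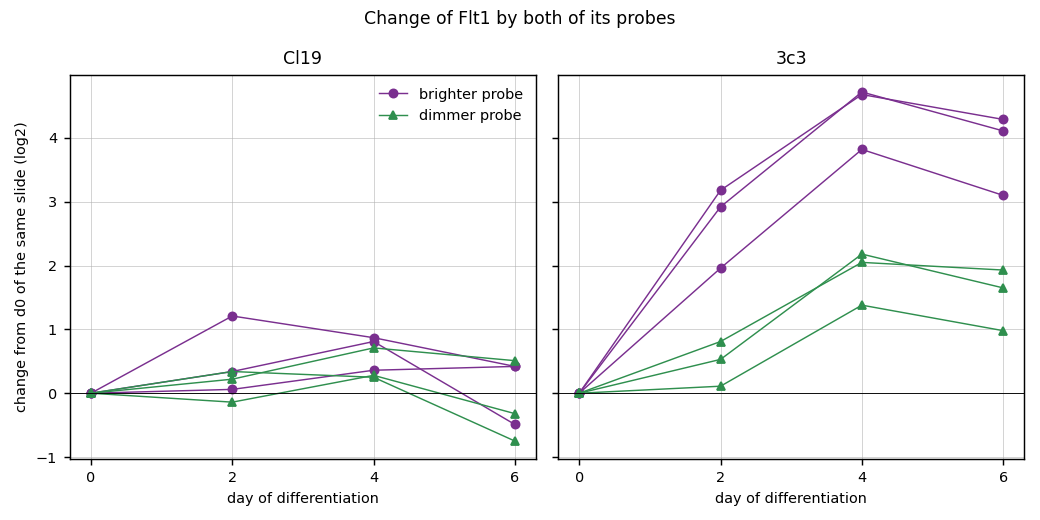
Change of Flt1 from d0 of the same slide (log2, y axis) by day (x axis) in Cl19 and 3c3, for the brighter and the dimmer probe, with 1 line per replicate. In 3c3 the brighter probe lay above the dimmer one on every slide, at 3.10 to 4.29 against 0.98 to 1.93 on d6, and in Cl19 both lay between -0.75 and 0.51 on d6.

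Kdr, the main signalling receptor for VEGF-A, peaked on d4 in 3c3. Its level was 1.76, 2.39 and 2.31 on d0, 2.50, 2.13 and 2.15 on d2, 4.62, 8.19 and 7.11 on d4, and 2.91, 2.75 and 2.47 on d6. All 3 arrays of d4 and 2 of d6 gave a signal well above background, and none of d0 and d2 did. It was at least 15.7-fold higher on d4 than on d0 (4.48 ± 0.77, adjusted p = 0.00017) and at least 10.2-fold higher than on d6 (adjusted p = 0.0033), where 2 of 3 arrays measured it. The probe entered the test through d4 of Cl19 and of 3c3 alone, so these p-values belong to a gene admitted by its d4 signal.

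The d4 replicates of Kdr were far apart, with replicate 1 at 4.62, but all of them were above every other 3c3 array. In Cl19 its level was 2.53, 2.45 and 2.95 on d0, 2.14, 3.93 and 5.34 on d2, 5.23, 3.28 and 3.48 on d4, and 1.49, 1.29 and 3.24 on d6. The Cl19 values overlapped between d0 and d2, and the F-test over time did not pass (adjusted p = 0.093), although it did without Cl19 d2 replicate 1 (0.019), Cl19 d6 replicate 3 or 3c3 d4 replicate 1. The Cl19 change to d2 was 1.16 (adjusted p = 0.32), or 2.0 without replicate 1 (adjusted p = 0.068). On d4 of Cl19 all 3 arrays were well above background and above every d0 array. That change was at least 2.45-fold but was not called (1.35 ± 0.77, adjusted p = 0.16). Whether the d4 change differed between the lines was not tested. The change to d6 was not called in either line.

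Flt4, the receptor for VEGF-C and VEGF-D, gave a signal well above background on the 3 Cl19 d6 arrays and on none of the other 23. Its level there was 3.15, 3.52 and 3.14, against 0.44, 1.18 and 0.35 on d0. Since it was below background on d0, the rise is given as at least 1.88-fold (2.61 ± 0.38 as fitted, adjusted p = 1.1e-05). The probe entered the test through this group alone, and with every probe tested the adjusted p was 2.2e-05. On d4 of Cl19 all 3 values, 1.80 to 2.09, were above those of d0 but still not well above background, and the change to d2 was 0.47, or 0.48 without replicate 1. In 3c3 all values lay between 0.37 and 1.50, and the lines differed in the d6 change (2.67 ± 0.54, adjusted p = 0.0016, or 0.0029 with every probe tested).

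Nrp1, the co-receptor of Kdr, was not well above background on any of the 24 rMAPC arrays. Its values there ranged up to 3.15, on 3c3 d4 replicate 3, and no change with time was called in either line (-0.05 to d2 of Cl19, or 0.01 without replicate 1).

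Tek, the angiopoietin receptor, fell below background in Cl19. Its level was 6.01, 5.84 and 6.19 on d0, 4.15, 3.02 and 2.10 on d2, 0.67, 0.58 and 0.55 on d4, and 0.89, 0.48 and 0.59 on d6. No value of d2, d4 or d6 overlapped with d0. The fall was at least 16.9-fold by d6 (-5.36 ± 0.33 as fitted, adjusted p = 2.2e-10), and on d2 it was -2.93 (adjusted p = 2.9e-06), or -3.45 without replicate 1.

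In 3c3 Tek remained well above background on 11 of 12 arrays. Its level was 4.65, 4.98 and 5.01 on d0, 3.87, 3.71 and 4.33 on d2, 4.00, 3.88 and 3.68 on d4, and 3.99, 4.81 and 4.70 on d6. The d2 and d4 values lay below those of d0 (-1.03 on d4, adjusted p = 0.021, lost without 3c3 d0 replicate 2 or 3 or without 3c3 d4 replicate 3, adjusted p up to 0.072), and the d6 values overlapped with them (-0.38 ± 0.33, adjusted p = 0.37). The F-test in 3c3 was near the threshold (adjusted p = 0.044) and did not pass without any 1 of 21 of the 26 arrays in turn (0.004 to 0.12). The change from d0 to d6 differed between the lines by -4.98 ± 0.47 (Cl19 minus 3c3, adjusted p = 6.7e-07). A second Tek probe was never well above background.

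Tie1, the orphan partner of Tek, moved in opposite directions in the lines. In Cl19 its level was 5.74, 4.92 and 5.10 on d0 and 3.98, 2.60 and 3.55 on d6, a 3.67-fold fall (-1.88 ± 0.34, adjusted p = 0.00012). In 3c3 its level was 4.89, 4.81 and 4.71 on d0 and 5.99, 6.59 and 6.46 on d6, a 2.91-fold rise (1.54 ± 0.34, adjusted p = 0.00096). In neither line did d0 and d6 overlap.

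Within the slides the Cl19 change of Tie1 was -1.75, -2.33 and -1.55 and the 3c3 change 1.11, 1.77 and 1.75. Tie1 was the only one of the 10 genes that was called in both lines with opposite sign, and the lines differed in the d6 change by -3.42 ± 0.48 (adjusted p = 4.9e-05). The second Tie1 probe changed by -1.83 ± 0.36 in Cl19 (adjusted p = 0.00028) and by 1.32 ± 0.36 in 3c3 (adjusted p = 0.0054). In Cl19 the change to d2 was -0.20, or -0.44 without replicate 1, with neither called. On d2 and d4 the changes of Tie1 were smaller and not called, but with the replicate number as a block the 3c3 changes on d2 (0.78, adjusted p = 0.0033) and d4 (0.65, adjusted p = 0.0060) and the Cl19 change on d4 (-0.66, adjusted p = 0.0040) were.

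Pecam1, an adhesion molecule of endothelial and blood cells, fell in both lines. In Cl19 its level was 5.91, 5.69 and 5.79 on d0, 3.90, 2.63 and 1.69 on d2, 0.26, 1.12 and 1.09 on d4, and 2.61, 2.13 and 1.50 on d6. In 3c3 it was 6.05, 5.64 and 5.77 on d0, 3.55, 2.80 and 3.40 on d2, 3.01, 3.17 and 0.27 on d4, and 4.69, 3.34 and 3.11 on d6. In both lines every later array was below every d0 array.

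By d6 the fall of Pecam1 was at least 12.4-fold in Cl19 (-3.72 ± 0.62 as fitted, adjusted p = 4.3e-05) and at least 3.36-fold in 3c3 (-2.11 ± 0.62, adjusted p = 0.0080), with 2 of the 3 d6 arrays of each line measuring it. It was already called on d2 in Cl19 (-3.06, adjusted p = 0.0011, or -3.64 without replicate 1) and in 3c3 (-2.57, adjusted p = 0.0056). Only d0 of both lines and d2 of 3c3 brought the Pecam1 probe into the test, so it was admitted mainly by its d0 signal. The difference between the lines in the change from d0 to d6 did not pass the threshold (-1.61 ± 0.87, adjusted p = 0.25).

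Cdh5, the cadherin of endothelial junctions, was dim in both lines throughout. Its values ranged from 1.18 to 3.59 in Cl19 and from 1.97 to 3.20 in 3c3. The d6 change was -0.63 ± 0.39 in Cl19 (adjusted p = 0.19) and -0.25 ± 0.39 in 3c3 (adjusted p = 0.64), and d0 and d6 overlapped in both lines. The change to d2 in Cl19 was -0.80 (adjusted p = 0.16), and it was called without replicate 1 (-1.16, adjusted p = 0.047). A second Cdh5 probe was too dim to be tested.

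Eng, the TGFβ co-receptor, rose in 3c3 by a modest amount. Its level there was 4.91, 4.70 and 4.61 on d0, 5.49, 5.29 and 5.29 on d2, 5.69, 5.20 and 5.23 on d4, and 6.15, 5.76 and 6.04 on d6, with every later array above every d0 array. The rise was 2.36-fold by d6 (1.24 ± 0.24, adjusted p = 0.00024). In Cl19 the level was 4.96, 5.02 and 5.02 on d0 and 4.33, 5.26 and 5.27 on d6, which overlapped (-0.04 ± 0.24, adjusted p = 0.89), and the change to d2 was 0.10, or 0.06 without replicate 1. The lines differed in the d6 change by -1.28 ± 0.33 (adjusted p = 0.010), but not past the threshold without replicate 3 of 3c3 (-1.19, adjusted p = 0.079).

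Nos3, the endothelial nitric oxide synthase, had the largest rise of the 10 genes in Cl19. Its level, averaged over 10 features of the array, was 1.07, 0.70 and 1.34 on d0, 0.41, 1.98 and 2.25 on d2, 4.43, 5.82 and 6.41 on d4, and 7.57, 7.61 and 7.43 on d6. The signal exceeded background clearly on 1 d2 array and on all arrays of d4 and d6, but on no d0 array. The change to d2 was 0.51 (adjusted p = 0.47), or 1.08 without replicate 1 (adjusted p = 0.056). The rise was at least 9.16-fold by d4 (adjusted p = 8.7e-08) and at least 36.2-fold by d6 (6.50 ± 0.43 as fitted, adjusted p = 5.2e-10). Only d4 and d6 of Cl19 and the primary samples brought this probe into the test. These p-values thus belong to a gene admitted by the groups where it was high.

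In 3c3 Nos3 was low on all days. Its level was 1.38, 0.89 and 0.59 on d0 and 2.77, 2.42 and 2.09 on d6, the latter well above background on 2 of 3 arrays. The groups did not overlap and the fitted change was called (1.47 ± 0.43, adjusted p = 0.0084), but no fold above 1 can be given against the lowest measurable signal of the d0 arrays. With values floored at that signal the change was 0.24 (adjusted p = 0.53), and with normexp background correction it was 0.10 (adjusted p = 0.54). The lines differed in the d6 change by 5.03 ± 0.61 (adjusted p = 1e-05), and with the floor by 4.81 (adjusted p = 1.1e-07).

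Altogether the change from d0 to d6 differed between the lines for 6 of the 10 genes (Flt1, Flt4, Tek, Tie1, Eng and Nos3), against 17.4% of all probes. For Nos3 and Flt4 it was higher in Cl19, and for Flt1, Tek, Tie1 and Eng it was higher in 3c3. The within-slide d6 changes did not overlap between the lines for these 6 genes. They overlapped for Kdr (-1.16 to 0.30 in Cl19, 0.16 to 1.15 in 3c3) and for Nrp1. For Pecam1 (-4.30 to -3.30 and -2.66 to -1.36) and Cdh5 (-0.85 to -0.48 and -0.33 to -0.12) they did not overlap, but the difference was not called. The share of all probes without overlap was not counted. The 6 genes were picked by a test of the same values, so their lack of overlap adds no support.

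**Figure D3:**
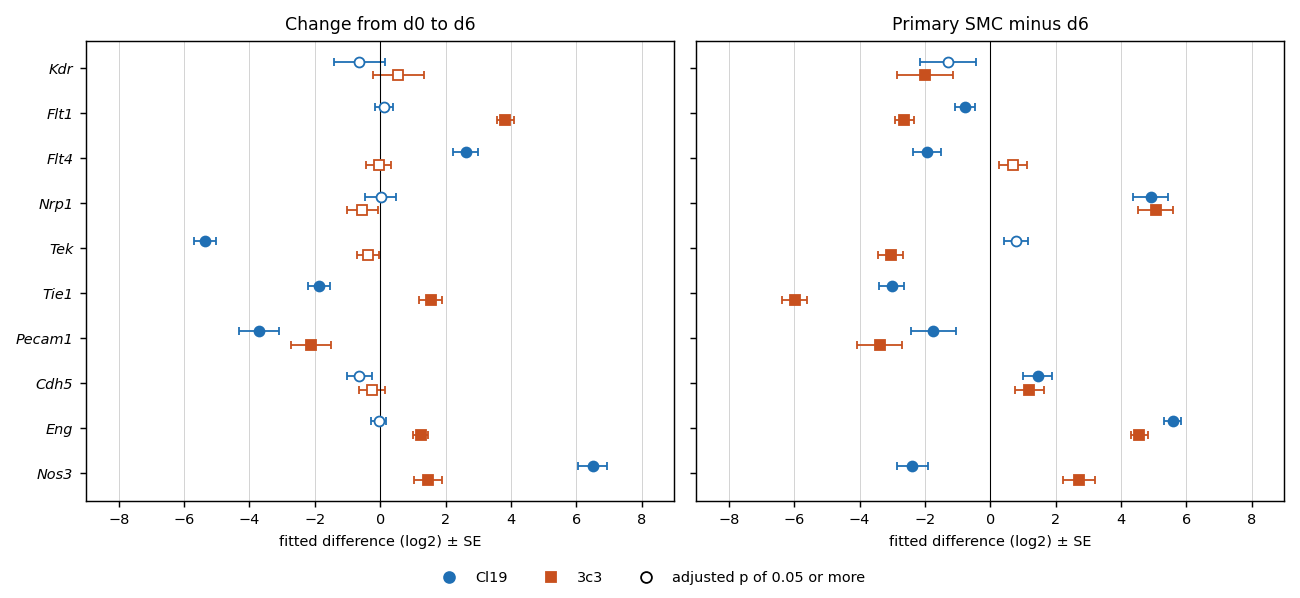
Fitted differences (log2, x axis) with standard errors for the 10 genes, left from d0 to d6 in each line and right between primary SMC RNA (2 arrays) and d6 of each line. Filled symbols passed an adjusted p of 0.05. Tie1 lies on opposite sides of 0 in the left panel (-1.88 and 1.54), and Eng and Nrp1 lie furthest to the right in the right panel.

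In primary SMC RNA, 4 of the 10 genes were well above background on both arrays (Flt1, Eng, Nos3 and Nrp1), Cdh5 was on 1, and Kdr, Flt4, Tek, Tie1 and Pecam1 were on neither. Of the other defining endothelial genes, Vwf was measured on 1 of these arrays and Erg and Emcn on neither. Of the whole lists, 7 of the 21 other endothelial genes with a probe (Icam1, Vcam1, Egfl7, Thbd, Procr, Mcam and Esm1) and 6 of the 12 transcription factors (Ets1, Tal1, Gata2, Sox17, Sox18 and Klf2) gave a signal well above background on each primary SMC array. For all gene features this share was 43.6% on 1 of these arrays and 44.5% on the other, so these counts do not set the lists apart. Compared with d6 of Cl19, 3 genes were called higher, against 32.8% of all probes, and 5 lower, against 38.6%. Compared with d6 of 3c3, 4 were called higher, against 33.4% of all probes, and 5 lower, against 38.1%. The primary samples share no slide or scan day with the lines.

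Eng was at 10.58 and 10.51 in primary SMC RNA, above all 24 rMAPC arrays. It was 48.0-fold higher than on d6 of Cl19 (5.59 ± 0.26, adjusted p = 3.8e-13) and 23.6-fold higher than on d6 of 3c3 (4.56 ± 0.26, adjusted p = 8e-12). Nrp1 was at 5.36 and 5.39, at least 10.9-fold higher than in Cl19 (adjusted p = 8.7e-08) and at least 5.84-fold higher than in 3c3 (adjusted p = 5.4e-08). The probe entered the test through the primary samples alone, and with every probe tested the adjusted p was 1.98e-07 and 1.25e-07. These genes had the largest excess in primary SMC RNA over d6 of either line among the 10.

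Nos3 was at 5.11 and 5.19, between the lines. It was 5.22-fold lower than on d6 of Cl19 (-2.38 ± 0.48, adjusted p = 0.00021) and at least 4.06-fold higher than on d6 of 3c3 (2.72 ± 0.48, adjusted p = 5e-05), the latter not past the threshold in the authors' log2 table (0.56, adjusted p = 0.45). Flt1 was at 7.95 and 7.60, 6.20-fold lower than on d6 of 3c3 (adjusted p = 1.5e-07). Against d6 of Cl19 it was 1.71-fold lower (adjusted p = 0.025), a call that was lost without Cl19 d6 replicate 1 or 2 or without primary replicate 2 (adjusted p up to 0.17). The second Flt1 probe was not well above background on either primary array, was at least 2.87-fold lower than on d6 of 3c3 (adjusted p = 0.00022) and did not pass against Cl19 (0.18, adjusted p = 0.61).

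Tie1 was at 0.35 and 0.37, at least 5.95-fold lower than on d6 of 3c3 (adjusted p = 3.5e-11), and Tek was at least 1.65-fold lower than there (adjusted p = 4.7e-07). Against d6 of Cl19 the fitted difference of Tie1 was -3.02 (adjusted p = 7.7e-07), with no fold above 1 that the signal allows. Pecam1 was at 0.34 and 0.32 and was called lower than on d6 of both lines as fitted, also with no measurable fold, and against Cl19 the sign turned with scaling by the 75th percentile (0.05) and the call was lost without Cl19 d6 replicate 1 or 2 or without either primary array (adjusted p up to 0.097). Cdh5 was at 3.86 and 4.12 and was called higher (1.46 and 1.19, adjusted p = 0.0062 and 0.021), but in the authors' log2 table the sign turned (-0.58 and -0.68). The Cdh5 call against Cl19 was lost without primary replicate 2 (adjusted p = 0.051), and that against 3c3 without either primary array or without 3c3 d6 replicate 2 (adjusted p up to 0.11). The Kdr call against 3c3 (lower, adjusted p = 0.045, with no measurable fold) was lost in 15 of 26 fits that left out 1 array.

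Among the ligands of these receptors, those called on d6 were higher than on d0 in both lines. Of 8 ligand genes 7 were tested, and on d6 of Cl19 4 were called higher (22.0% of all probes) and none lower (30.3%), with a median change of 1.08. On d6 of 3c3 3 were called higher (19.7%) and none lower (28.6%), with a median change of 0.97. Pgf, placental growth factor and a ligand of Flt1, rose 7.21-fold in Cl19 (2.85 ± 0.42, adjusted p = 1.2e-05) and at least 46.1-fold in 3c3 (5.54 ± 0.42, adjusted p = 5.3e-09), where 2 of 3 d0 arrays measured it, and this difference was called (-2.69, adjusted p = 0.0032). Vegfb, another Flt1 ligand, rose 2.11-fold in Cl19 (adjusted p = 0.030) and 4.15-fold in 3c3 (adjusted p = 0.00031). Pgf and Vegfb rose in 3c3 together with Flt1, while in Cl19 the Flt1 change to d6 was not called. On d4 of Cl19, Pgf (3.20), Vegfb (1.25) and Flt1 (0.68) were each called higher than on d0. Vegfa, a further Flt1 ligand, and Angpt1 are named after their values were seen. Vegfa was not called on d6 in Cl19 (0.11, adjusted p = 0.89) or 3c3 (-0.09, adjusted p = 0.92). The Tek ligands Angpt1 (2.80) and Angpt2 (2.49) were called higher on d6 of Cl19, where Tek fell, but not in 3c3. The Angpt1 probe entered the test through d4 and d6 of Cl19 alone.

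In primary SMC RNA, Vegfc, a ligand of Flt4, was 713-fold higher than on d6 of Cl19 (adjusted p = 1.4e-10) and 180-fold higher than on d6 of 3c3 (adjusted p = 4.4e-09). Figf (VEGF-D) was below the measurable range on d0 and d6 of both lines and was at least 29.0-fold and 15.6-fold higher in primary SMC RNA. Its probe entered the test through the primary samples alone. Angpt2, a ligand of Tek, was 6.81-fold higher than in Cl19 (adjusted p = 0.00048) and at least 10.5-fold higher than in 3c3 (adjusted p = 5.8e-07), where 1 of 3 d6 arrays measured it.

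Of 12 receptor partners and related signalling genes, 11 had a probe and 6 were tested. On d6 of Cl19, 2 were called higher (22.0% of all probes) and 1 was called lower (30.3%), and the median change was 0.27. On d6 of 3c3, 1 was called higher (19.7%) and 2 were called lower (28.6%), and the median change was -0.21, so these counts were near the shares of all probes. Apln, the ligand of the apelin receptor, fell 16.9-fold in Cl19 (adjusted p = 7.3e-06) and 8.13-fold in 3c3 (adjusted p = 0.00026). Plxnd1, a semaphorin receptor, rose 2.96-fold in Cl19 (adjusted p = 0.0042) and fell at least 3.74-fold in 3c3 (adjusted p = 0.00079), with 2 of 3 d6 arrays measuring it. Acvrl1 (ALK1), the type I receptor that signals with Eng, was at 10.78 ± 0.01 (SD, n = 2) in primary SMC RNA, 164-fold above d6 of Cl19 (adjusted p = 4.9e-11) and 80.1-fold above d6 of 3c3 (adjusted p = 4.8e-10). Acvrl1 and Eng were thus both highest in the primary samples, and Ptprb, a phosphatase that acts on Tek, was higher there as well (26.4-fold and 6.41-fold).

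Of 12 transcription factors of endothelial and blood development, 9 were tested. On d6 of Cl19, 3 were called higher (22.0% of all probes) and 4 lower (30.3%), with a median change of -0.39. On d6 of 3c3, 2 were called higher (19.7%) and 2 lower (28.6%), close to the shares of all probes, with a median change of -0.04. Erg, Fli1 and Etv2 were too dim to be tested. Hhex rose 12.8-fold in Cl19 (adjusted p = 2.9e-07) and 6.40-fold in 3c3 (adjusted p = 2.1e-05), and Ets1 rose 2.61-fold (adjusted p = 4.2e-05) and 3.68-fold (adjusted p = 1.9e-06). Sox17 fell 17.4-fold (adjusted p = 4e-09) and 3.59-fold (adjusted p = 0.00011). Klf2, a flow-responsive factor, and Sox18 were called higher in primary SMC RNA than on d6 of either line, by 4.17 and 2.10 on the log2 scale for Klf2 and by 2.84 and 2.41 for Sox18.

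Among 22 other endothelial genes, 21 had a probe and 13 were tested. On d6 of Cl19, 5 were called higher (22.0% of all probes) and 5 were called lower (30.3%), and the median change was -0.10. On d6 of 3c3, 5 were called higher (19.7%) and 2 were called lower (28.6%), and the median change was 0.96. Plvap, a protein of endothelial fenestrae, rose at least 112-fold in 3c3, where 1 of 3 d0 arrays measured it (adjusted p = 1.5e-09), and 2.83-fold in Cl19 (adjusted p = 0.021). Procr, the endothelial protein C receptor, rose 3.53-fold in Cl19 and 11.6-fold in 3c3. Thbd, thrombomodulin, fell 54.7-fold in Cl19 (adjusted p = 4.9e-09) and 3.16-fold in 3c3 (adjusted p = 0.0056).

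Vcam1 moved in opposite directions, as Tie1 did. It fell at least 10.6-fold in Cl19 (adjusted p = 8.9e-06), where 1 of 3 d6 arrays measured it, and rose at least 2.50-fold in 3c3 (adjusted p = 0.046), where 2 of 3 d0 arrays did. In primary SMC RNA it was at 12.6. Lyve1, a hyaluronan receptor of lymphatic endothelium, fell at least 15.3-fold in Cl19 (adjusted p = 2.5e-09), while in 3c3 its fitted fall (-1.30, adjusted p = 0.010) was within the unmeasurable range. Its probe entered the test through the d0 arrays of Cl19 alone. Esm1 was measured on both primary SMC arrays and on no array of the lines. Cd34, Icam2, Cldn5, Sele and Clec14a were not well above background on any array.

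**Figure D4:**
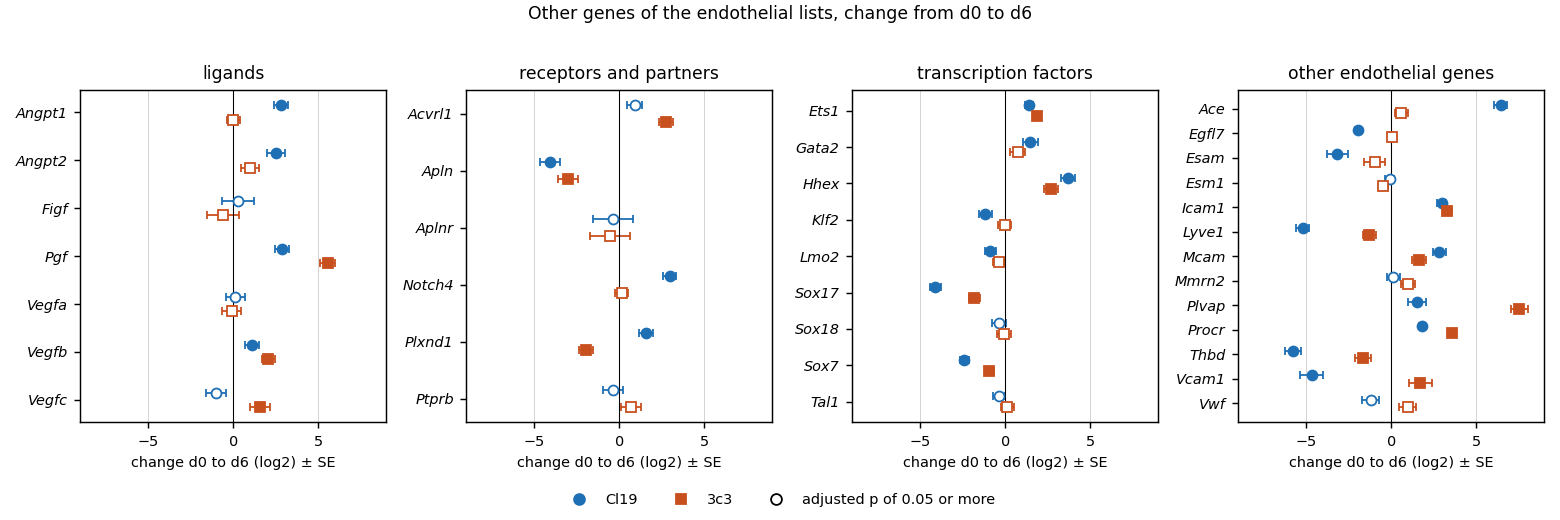
Change from d0 to d6 (log2, x axis) with standard errors in Cl19 and 3c3 for the tested genes of the lists of ligands, partners, transcription factors and other endothelial genes. Filled symbols passed an adjusted p of 0.05; Plxnd1 and Vcam1 passed on opposite sides of 0, and Plvap rose most in 3c3 (7.53).

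Markers of other cell types moved as well, and their part in these results was not tested. The summed intensity of the 6 smooth muscle genes with a probe rose from 1840 to 2220 on d0 to between 61100 and 73100 on d6 in Cl19. In 3c3 it rose from 1440 to 1680 to between 28900 and 46000. Of these genes, 5 were called higher on d6 in both lines (Tagln by 6.54 and 5.95). Of all probes, 22.0% were called higher in Cl19 and 19.7% in 3c3. Myocd was called lower in 3c3 as fitted (-1.20). The summed intensity of 5 genes of blood cells was 123 to 176 on d0 and 159 to 225 on d6 in Cl19. In 3c3 it was 105 to 144 on d0 and 731 to 1970 on d6, with Csf1r, named here after its values were seen, as the main contributor (6.24, adjusted p = 4.6e-08). This rests on the brightest Csf1r probe, as its other probes were not well above background on any 3c3 array. Of the 4 blood cell genes tested, 1 was called higher in Cl19 (22.0% of all probes) and 2 in 3c3 (19.7%), and Lyz2 was called in both (4.74 and 4.06). The pan-leukocyte gene Ptprc was measured on 1 of 24 rMAPC arrays and on both primary SMC arrays (3.91 and 4.32 against d6), and Itgam on no array. The summed intensity of 4 progenitor genes fell from between 32100 and 35400 to between 15400 and 23200 in Cl19 and from between 35300 and 38500 to between 27100 and 28700 in 3c3, with Pou5f1 (Oct4) changing by -9.15 and -4.11. Of these 4 genes, 3 were called lower in Cl19 (30.3% of all probes) and 2 in 3c3 (28.6%). In each line 1 was called higher (22.0% and 19.7% of all probes).

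For the 4 genes called over time in both lines, the genes with the most similar course over the 24 rMAPC arrays were taken from 9812 genes, as a description. They share the slides and the days. For Nos3 these were Rab25, Efhd2 and Tmem40 (Pearson's r = 0.98, 0.97 and 0.97). For Tek they were Spn, Arhgap9 and Gcs1 (0.97, 0.97 and 0.96). For Pecam1 they were Ms4a15, Nkg7 and Chgb (0.95, 0.92 and 0.91), and for Tie1 they were Man1a1, Lace1 and Ctdspl (0.93, 0.93 and 0.91). None of these 12 genes is among the 10 or in the endothelial lists.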

How the data were processed

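RNA was labeled with Cy3 and hybridized to 26 one-colour Agilent Whole Rat Genome arrays. The authors quantified them with Agilent Feature Extraction 10.1.1.1 and deposited, for each feature, an intensity that the software had corrected for background and for which it substitutes a value on dim features. A table of log2 values, also deposited by the authors, equals the log2 of these intensities to within 5.2e-14 and is not normalized between arrays. Probe positions are those of the array's annotation (rn4).

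The log2 intensities of 43379 gene features were quantile-normalized, outlier features were left out and features of a probe were averaged (41012 probes). Quantile normalization removes changes shared by most genes and gives each array the same distribution, and dim probes have a wide spread on the log2 scale. The test used limma 3.58.1 (R 4.3.3) in a fit of all 9 groups, over the 24442 probes that were well above background throughout 1 or more groups. P-values were adjusted by Benjamini-Hochberg and called under 0.05. The fit was tested on simulated data with independent noise on each array. That simulation leaves out the shared slides, so it cannot show how they affect the fit. Samples were grouped by their labels, and replicates by number.

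Where the dimmer group was not well above background on all its arrays, the fold is a bound: the mean of the brighter group against the mean of, on each array, the higher of the probe's value and the lowest signal well above background. The number of arrays limits the precision.

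All 10 genes are named. A gene of another list is named where it was called on d6 in both lines with a log2 change of at least 1, or was measured on both primary SMC arrays and called against d6 of both lines by at least 2, at most 6 per list by size. Similar genes were the 3 with the highest r among genes well above background on at least 12 of the 24 rMAPC arrays. Genes and lists were chosen with earlier results of these data known. Ephb4, Stab1, Myh11, Spi1 and Hba-a1 had no probe of that name and were not analysed here.

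Days of a replicate shared a slide, as the file headers show, which pairs them: deviations from the group means correlated by over 0.1 within slides in 6 of 6 pairs of d0 with d6, in 16 of 18 pairs of Cl19 arrays and in 18 of 18 of 3c3. The alternatives were other scalings, the authors' table, normexp with an offset of 50, no filter, a floor, the replicate block, a fit per line, the mean over probes, Student's t-test, and leaving out arrays.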

Additional observations from a re-analysis of the deposited data

Results flagged for a closer look

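The change from d0 to d6 differed between the lines, by the test of that difference (Cl19 minus 3c3, log2, limma), for 6 genes. It was -4.98 for Tek (adjusted p = 6.7e-07), -3.72 for Flt1 (adjusted p = 1.3e-06), 5.03 for Nos3 (adjusted p = 1e-05), -3.42 for Tie1 (adjusted p = 4.9e-05), 2.67 for Flt4 (adjusted p = 0.0016) and -1.28 for Eng (adjusted p = 0.010). For Tek, Flt4 and Nos3 these are fitted values, since a group on at least 1 side of the change was not well above background. Each call also held without any 1 of the 26 arrays, with ranges of -5.23 to -4.82, -3.94 to -3.42, 4.81 to 5.21, -3.72 to -3.03, 2.46 to 2.93 and -1.44 to -0.97 in the same order, but that of Eng did not hold without the whole slide of 3c3 replicate 3.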

How the results depend on the processing

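The counts of genes called on d6 (5 in Cl19, 5 in 3c3) stayed at 5 in Cl19 under every alternative run and between 4 and 6 in 3c3, and the count of differences between the lines stayed at 5 or 6. With the replicate number as a block, the counts were 5 and 7 over time, 5 and 5 on d6 and 6 for the difference, and beside the changes of Tie1 given above, the block added the calls of Tek (-0.91, adjusted p = 0.041) and Eng (0.61, adjusted p = 0.023) on d2 of 3c3 and of Eng on d4 of Cl19 (-0.46, adjusted p = 0.046). Without replicate 3 of 3c3 the F-test in 3c3 called 4 genes in place of 7 (Flt1, Kdr, Pecam1 and Nos3). The count against primary SMC RNA was 8 for Cl19 d6 and fell to 5 with normexp. Leaving out 1 array gave 5 to 9, with 5 without primary replicate 2. On d0 the count was 1, and 2 (Tek added) in the authors' log2 table and with normexp. Leaving out 1 array gave 1 to 2, with 2 without replicate 1 or 3 of Cl19 d2. Leaving out 1 array gave 5 to 6 genes over time in Cl19, 6 to 7 in 3c3 and 7 to 9 against 3c3 d6. Signs turned for Pecam1 (0.05, scaling by the 75th percentile) and Cdh5 (-0.58, authors' table) against Cl19 d6, and for Cdh5 against 3c3 d6 (-0.68, authors' table). The cause was not tested. The methods' t-test called 5 genes on d6 in each line, at its threshold and after Benjamini-Hochberg adjustment. The median change of all probes to d6 was -0.20 and -0.21, and 0.10 and 0.09 in the authors' table. Signal over background limits Kdr, Flt4, Nrp1, Cdh5 and Nos3 in 3c3.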
